A study of Homo sapiens with 6 samples.

Results

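Long intergenic noncoding RNAs (lincRNAs) are by definition transcripts without a known protein product from genes that lie between protein-coding genes. The lincRNAs described here were selected on depth, as the genes that the deposited count table types as lincRNA and whose reads, summed over the 6 libraries, reached 600. These were 153 of 3313 lincRNAs, or 4.62%, among 29845 genes with a read. They held 70.7% of all lincRNA reads. The type is that of the table: in the later annotation GENCODE 44, 135 of the 153 were long noncoding RNAs, 4 were protein-coding, the rest were of other types or not found by ID, and 45 overlapped a protein-coding gene. Because the sum ran over both groups, a lincRNA could pass it through 1 group alone, and 136 of the 153 had at least 300 reads in each group. The read totals that chose them ran from 607 to 29640 with a median of 1377, against a median of 7 for the other lincRNAs. Just inside the limit were AP001505.10 with 609, RP11-488C13.5 with 608 and RP11-65J21.3 with 607 reads, and just outside were APTR with 596, RP11-108M9.4 with 594 and RP11-356J5.12 with 586.

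The study asked how the transcriptome responds to TFAM, a factor that packages mitochondrial DNA and regulates its transcription. A549 cells, an established line from a human lung epithelial cancer, were transiently transfected with the pIRES-hrGFP-1a vector carrying FLAG-tagged TFAM (TFAM-OE) or with the empty vector (control), without sorting of transfected cells. Both groups therefore shared the line, the vector backbone and the lipid transfection, and each had 3 biological replicates. Poly(A) RNA was sequenced from a stranded kit.

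The deposited reads summed to between 26650854 and 37321956 per library, and the 153 lincRNAs took between 0.162% and 0.192% of them. TFAM itself had 76.1, 70.2 and 72.7 CPM (reads scaled to a common library size) in control libraries 1 to 3 and 71.9, 77.3 and 83.0 CPM in the libraries labelled TFAM-OE. Its log2 fold change was 0.08 ± 0.10 (SE, edgeR quasi-likelihood test, adjusted p = 0.623), so the transcript counts did not separate the labelled groups, and every direction below is that of the labels. The study checked the overexpression on the FLAG-tagged protein by western blot, which these read counts do not measure. Of 5 epithelial markers, 4 were above 1 CPM in all libraries, whereas of 7 markers of the alveolar type II cell only ABCA3 was, and the surfactant genes found in the table were at 0 or near it. The summed level of the 9 of 12 blood, vessel and fibroblast markers found in the table lay between 4.65 and 4.93 CPM in the controls and between 2.95 and 5.27 CPM in the libraries labelled TFAM-OE, nearly all of it from COL1A1.

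Interferons signal through JAK kinases and STAT factors to a pair of promoter elements, the ISRE and the GAS, and so raise the interferon-stimulated genes (ISGs) of antiviral defence. Noncoding genes that start beside an ISG or inside its cluster can be transcribed along with it. Other lincRNAs host small nucleolar RNAs in their introns, scaffold nuclear bodies or respond to p53.

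The promoters that bear on the ISG neighbours and on the larger decreases are shown first, from the RefSeq promoters of GRCh38.p14, which run from 250 bases before a gene's start to 50 after it. Of the 153 lincRNAs, 83 matched a RefSeq promoter. Both strands were searched for the ISRE letters GAAANNGAAA and the GAS letters TTCNNNGAA, and the 2 motifs were counted separately. The ISRE letters were in 2 of the 83 promoters, or 2.41%, against 3.57% of all 35116 promoters, and the GAS letters were in 7, or 8.43%, against 7.66%. The ISRE matches belonged to PSMB8-AS1 and HCG11. Capitals mark the matched letters, the first match in PSMB8-AS1 being the ISRE and the second the GAS. The stretches for PSMB8-AS1 (plus strand, chr6:32844042-32844135, from the ISRE to the end of the RefSeq window) and HCG11 (plus strand, chr6:26521456-26521755) are given for these matches. RP11-540A21.2 (minus strand, chr11:9759484-9759783), one of the larger decreases, held neither motif. The stretch of SCAMP1-AS1 (minus strand, chr5:78360492-78360610) is the part of its window free of coding and untranslated bases, and it runs into the gap that separates SCAMP1-AS1 from SCAMP1.
PSMB8-AS1: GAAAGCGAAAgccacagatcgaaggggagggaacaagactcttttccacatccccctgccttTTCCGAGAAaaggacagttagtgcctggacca
HCG11: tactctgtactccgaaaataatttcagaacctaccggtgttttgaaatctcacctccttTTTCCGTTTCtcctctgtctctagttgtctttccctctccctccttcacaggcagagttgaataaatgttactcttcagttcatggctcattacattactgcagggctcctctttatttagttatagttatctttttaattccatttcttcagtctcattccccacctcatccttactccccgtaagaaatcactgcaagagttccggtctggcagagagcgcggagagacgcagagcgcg
RP11-540A21.2: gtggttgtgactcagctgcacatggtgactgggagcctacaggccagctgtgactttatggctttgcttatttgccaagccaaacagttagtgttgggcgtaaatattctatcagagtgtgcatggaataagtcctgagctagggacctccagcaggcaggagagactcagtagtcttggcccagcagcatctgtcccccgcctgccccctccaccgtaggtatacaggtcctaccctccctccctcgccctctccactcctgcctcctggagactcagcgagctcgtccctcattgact
SCAMP1-AS1: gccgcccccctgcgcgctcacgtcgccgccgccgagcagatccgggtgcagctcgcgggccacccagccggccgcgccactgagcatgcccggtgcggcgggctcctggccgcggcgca
The ISRE of PSMB8-AS1 began 44 bases before its RefSeq start, and the GAS lay just inside the transcript. That of HCG11 began 191 bases before the start, on the opposite strand. A match describes letters only, and RP11-54O7.17, ENSG00000274213, BCYRN1 and PVT1 had no entry.

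Most well-measured lincRNAs moved little between the groups. Of the 153, all of which entered the test, 11 fell and 2 rose at an adjusted p below 0.05 (edgeR quasi-likelihood, Benjamini-Hochberg over 16555 genes), and 140 did not pass. The shares of all genes tested that passed were 4.81% lower and 3.48% higher, against 7.19% and 1.31% of the lincRNAs. With a fold of at least 2 or at most 0.5 added, 2 lincRNAs fell, RP11-54O7.17 and RP11-540A21.2, and 0 rose, against 2.07% and 0.447% of all genes. Of the 11 that fell, RP11-540A21.2 and LINC01001 had under 300 reads in the group labelled TFAM-OE, and their reads lay mostly in the controls that chose them. At an unadjusted p below 0.05, 24 were lower and 11 higher, and DESeq2 also gave 0 increases past the fold limit. In 28 lincRNAs every library labelled TFAM-OE was below every control library, and in 16 every one was above, which is 18.3% and 10.5% beside a background of 15.8% in either direction. In bulk RNA, a smaller number of transcribing cells and less RNA per cell cannot be told apart.

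The median log2 fold change over the lincRNAs was -0.05, beside -0.01 over all genes tested, and 89 values were negative and 64 positive. The middle of the distribution ran from -0.26 to 0.15 (quartiles), and 137 of the 153 were within 1.5-fold in either direction. The median SE was 0.16, against 0.15 over all genes. Among genes that the table types as antisense and that had as many reads, 10 of 281 fell and 6 rose, and among protein-coding genes 540 of 11159 fell and 477 rose. The plot of change against level places the lincRNAs in the lower middle of the expression range.

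**Figure D1:**
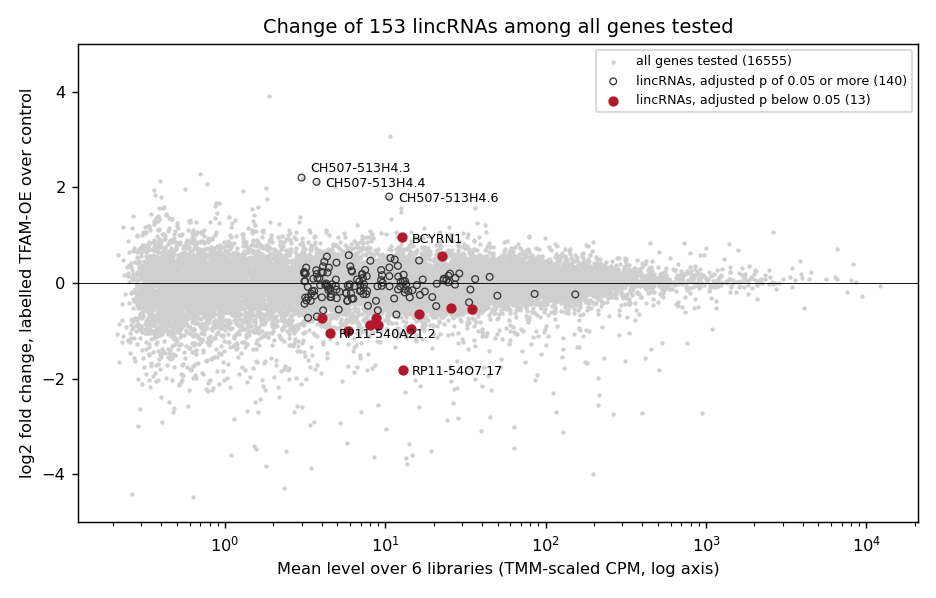
Each point is a gene, with its mean CPM over the 6 libraries on a log axis and its log2 fold change (libraries labelled TFAM-OE over control) on the vertical axis. Grey points are the 16555 genes tested, open circles the 140 lincRNAs that did not pass and red points the 13 that did, and the rows CH507-513H4.3, CH507-513H4.4 and CH507-513H4.6 are the highest lincRNA points without passing.

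The lincRNAs within 100 kb of an ISG were PSMB8-AS1, ENSG00000274213, RP11-54O7.17, HCG11 and CTD-3131K8.2, and 3 of these 5 fell. Their median log2 fold change was -0.73, beside -0.04 over the other 148, of which 8 fell and 2 rose. Of 142 ISGs tested, 120 fell and 0 rose, with a median of -1.36. Among all genes tested 4.81% fell and 3.48% rose, and 5 lincRNAs are too few to read a share from. These counts describe lincRNAs chosen for their place beside genes that moved in the same libraries.

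RP11-54O7.17 (ENSG00000272512, chr1:995966-998051, minus strand) fell the most of the 13. Its gene lay 3086 bases from ISG15, the ubiquitin-like antiviral modifier, on the other strand, with HES4 closer still on its own strand. It had 19.7, 22.5 and 17.7 CPM in control libraries 1 to 3 and 7.44, 6.27 and 3.23 CPM in the libraries labelled TFAM-OE. The groups were far apart, and library 3 labelled TFAM-OE was the lowest. The mean went from 19.98 ± 2.42 to 5.65 ± 2.17 CPM (SD, n = 3), and the log2 fold change was -1.82 ± 0.25 (SE, adjusted p = 0.00327, edgeR). The decrease passed under all 16 other settings tried, between -2.05 and -1.52. ISG15 fell by 2.72 on the log2 scale, whereas the nearer gene HES4 had a log2 fold change of -0.54 (adjusted p = 0.115, edgeR). None of its 2086 exonic bases in GENCODE 44 overlapped an exon of another gene with deposited counts, and genes without them were not searched.

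PSMB8-AS1 (chr6:32844078-32846500, plus strand) lies in the antigen-processing cluster and overlaps PSMB8 and PSMB9, subunits of the immunoproteasome, and TAP1, which carries peptides into the endoplasmic reticulum. It had 6.70, 8.41 and 8.38 CPM in the controls and 4.83, 3.66 and 3.27 CPM in the libraries labelled TFAM-OE, with no overlap. Its log2 fold change of -0.997 ± 0.18 (SE, adjusted p = 0.0118, edgeR) stood beside -1.003 for PSMB8, -1.14 for PSMB9 and -0.99 for TAP1. Of its exonic bases, 54.0% overlapped those genes and 7.18% overlapped one on the same strand. Whether the authors' counting used strand was not stated in the sources used here, and reads of the lincRNA and of its partners cannot be told apart. These genes were also far more abundant, with PSMB8 at 102 to 128 CPM in the controls. The ISRE at the head of the stretch printed above lies in part on bases annotated as untranslated or coding sequence.

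ENSG00000274213 (named by its identifier, chr17:56914168-56914533, plus strand) starts 87 bases from TRIM25, a ubiquitin ligase of the RIG-I antiviral pathway, and the pair is transcribed head to head. The lincRNA had 12.7, 10.8 and 9.14 CPM in the controls and 7.18, 7.10 and 5.37 CPM in the libraries labelled TFAM-OE. The lowest control was above the highest of the other group. The log2 fold changes were -0.73 ± 0.17 (SE, adjusted p = 0.0320, edgeR) for ENSG00000274213 and -0.67 for TRIM25. At 366 bases it was short, and per length it was among the highest lincRNAs, with a mean FPKM (fragments per length of transcript and depth of library) of 21.3.

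The other ISG neighbours did not pass. HCG11, beside the butyrophilin genes and with an ISRE match in its promoter, had 4.91, 4.97 and 5.08 CPM in the controls and 3.04, 4.93 and 4.23 CPM in the libraries labelled TFAM-OE (log2 fold change -0.29 ± 0.19 SE, adjusted p = 0.361, edgeR). The groups met at library 2 labelled TFAM-OE, while BTN3A3, 68.3 kb away, fell by 0.85 on the log2 scale. CTD-3131K8.2 (PGLS-DT) had 4.71, 4.63 and 3.93 CPM against 4.71, 4.84 and 3.20 CPM, a log2 fold change of -0.05 ± 0.19 (SE, adjusted p = 0.892, edgeR). BST2, the membrane tether of budding viruses and 83.4 kb away, fell by 3.36. Within 50 kb of an ISG there were 3 lincRNAs and all 3 fell. Within 500 kb there were 13, of which 4 fell, with a median of -0.13. Beside these stand 4.81% lower and 3.48% higher among all genes tested, and such small sets give no share to read.

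The fourth was LINC01001, with 5.54, 5.27 and 4.20 CPM in the controls and 2.79, 2.89 and 3.33 CPM in the libraries labelled TFAM-OE. Its groups did not overlap, and the log2 fold change was -0.73 ± 0.17 (SE, adjusted p = 0.0298, edgeR). It lay 164 kb to 180 kb from IFITM2, IFITM1 and IFITM3, which encode restriction factors of virus entry and changed by -1.20, -3.51 and -2.31 on the log2 scale. Its nearest coding gene, BET1L, had a log2 fold change of 0.15. The decrease of LINC01001 did not pass on any of the FPKM scales.

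**Figure D2:**
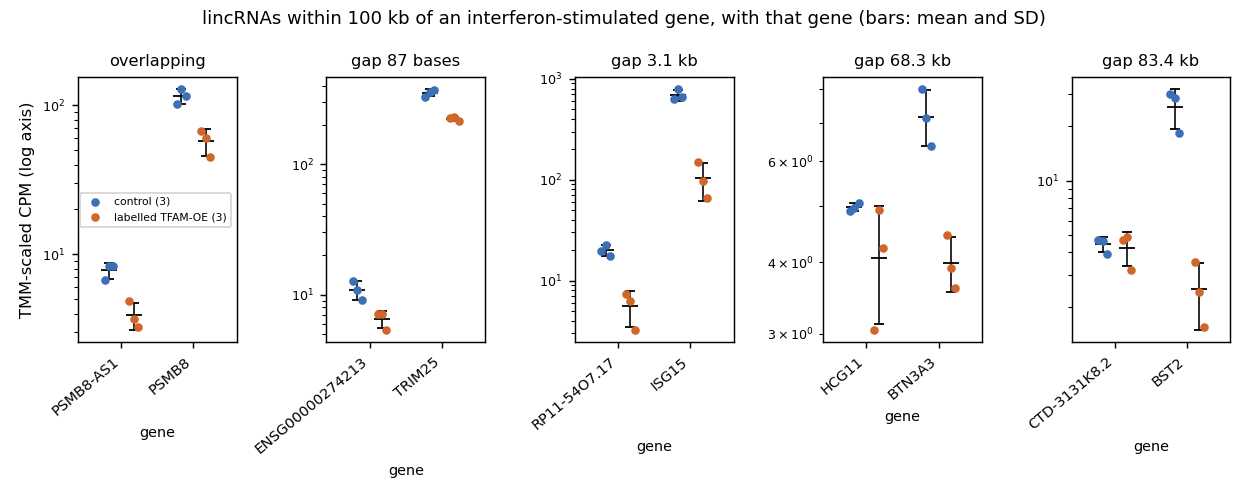
The 5 lincRNAs within 100 kb of an ISG are each drawn beside the nearest such gene, in CPM on a log axis that differs between panels. Points are libraries and bars the mean and SD of 3, and the groups are apart for PSMB8-AS1, ENSG00000274213 and RP11-54O7.17 but meet for HCG11 and CTD-3131K8.2.

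The lincRNAs with known functions were read by list. Of 10 lincRNAs or related RNAs in the table that are known to respond to interferon or virus, LUCAT1 and NEAT1 were well measured and neither passed. LUCAT1, a brake on interferon signalling in myeloid cells, stayed between 12.6 and 13.8 CPM in the controls and between 12.2 and 14.1 CPM in the libraries labelled TFAM-OE. Its groups overlapped, with a log2 fold change of 0.04 ± 0.12 (SE). HCP5 and AC079466.1 of this list, not among the 153, fell by 1.57 and 1.94 on the log2 scale, the latter on 68 reads in all. They are picked examples without a test result given here. The other genes of the list outside the 153 are not described, so these values say nothing of the list as a whole.

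NEAT1, the scaffold of paraspeckles, had 54.9, 38.1 and 34.8 CPM in the controls and 32.9, 40.6 and 66.4 CPM in the libraries labelled TFAM-OE. MALAT1, of nuclear speckles, had 31.8, 21.4 and 17.1 CPM against 22.5, 25.97 and 25.2 CPM. The groups overlapped for both nuclear-body RNAs, and their log2 fold changes were 0.13 ± 0.25 and 0.07 ± 0.20 (SE).

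Among the hosts of small nucleolar RNAs, the guides of ribosomal RNA modification, 2 of 4 fell and 0 rose, beside 4.81% and 3.48% of all genes tested. The list is too short to read a share from. SNHG8, which carries SNORA24, had 42.7, 39.6 and 40.5 CPM in the controls and 30.2, 29.9 and 24.0 CPM in the libraries labelled TFAM-OE, and fell by 0.54 ± 0.12 (SE, adjusted p = 0.0225, edgeR) on the log2 scale. EPB41L4A-AS1, which carries SNORA13, had 21.5, 19.1 and 18.5 CPM against 12.4, 12.7 and 12.5 CPM, and fell by 0.65 ± 0.12 (SE, adjusted p = 0.0110, edgeR). The groups were apart for both, and the spread of EPB41L4A-AS1 in the libraries labelled TFAM-OE was only 0.130 CPM (SD). SNHG15 was lower in every library, at 35.7 to 40.1 CPM against 24.2 to 32.6 CPM, with an adjusted p of 0.0786 (edgeR). SNHG19, the most abundant of the 153 per length, was at 53.7 to 58.5 FPKM in the controls and 56.4 to 61.5 FPKM in the other group (log2 fold change 0.09, adjusted p = 0.661, edgeR). SNHG8 and EPB41L4A-AS1 also overlap PRSS12 and EPB41L4A on the other strand, whose log2 fold changes were -0.09 and 0.13 and did not pass.

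Of 6 p53-linked lincRNAs, 2 fell and 0 rose, beside the same 4.81% and 3.48% of all genes, and the median over the 6 was -0.05, as over all 153. LINC01021 (PURPL), a p53-induced RNA that restrains p53, had 12.8, 10.8 and 11.4 CPM in the controls and 6.68, 6.99 and 5.40 CPM in the libraries labelled TFAM-OE. It fell by 0.88 ± 0.15 (SE, adjusted p = 0.00823, edgeR) on the log2 scale with no overlap. PVT1, next to MYC, had 31.6, 31.3 and 28.2 CPM against 22.2, 21.5 and 19.6 CPM. Its groups were also apart, and it fell by 0.53 ± 0.11 (SE, adjusted p = 0.0201, edgeR), while MYC had a log2 fold change of -0.03. LINC00657 (NORAD), which binds Pumilio proteins, was the most abundant lincRNA in CPM at 147 to 181 in the controls, but the other group ran from 101 to 182 CPM and spanned them (log2 fold change -0.24 ± 0.18 SE). TP53TG1 had a log2 fold change of 0.33 and LINC01116 of 0.14, and neither passed.

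The list of lincRNAs described in lung cancer held 14 of the 153, and 1 of them, PVT1, fell, which is near the 7.19% of all 153 and the 4.81% of all genes. The median over the 14 was 0.09. CRNDE, which is raised in many tumours, had 8.25, 8.82 and 11.4 CPM in the controls and 14.7, 13.4 and 11.996 CPM in the libraries labelled TFAM-OE. Its groups did not overlap, but the log2 fold change of 0.49 ± 0.16 had an adjusted p of 0.0825 (edgeR). LINC00511 at 0.08 ± 0.10, LINC01234 at 0.11 ± 0.11 and LINC00662 at 0.15 ± 0.11 had smaller log2 fold changes and errors. LINC00152 (-0.27) and the microRNA host MIR4435-2HG (-0.23) are near-identical copies that can share reads, so their split is uncertain. The other microRNA host, MIR22HG, had a log2 fold change of -0.15 and the imprinted MEG3 of -0.13, and none of these 4 passed.

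Decreases outside these lists were found for RP11-540A21.2, SCAMP1-AS1 and RP5-884M6.1. RP11-540A21.2 (LINC02709, chr11:9754770-9759533) had 7.03, 5.42 and 5.76 CPM in the controls and 3.64, 2.64 and 2.60 CPM in the libraries labelled TFAM-OE. Its mean went from 6.07 ± 0.849 to 2.96 ± 0.589 CPM (SD, n = 3) without overlap, and the log2 fold change was -1.04 ± 0.19 (SE, adjusted p = 0.0113, edgeR). SWAP70, whose end lies 1776 bases away, had a log2 fold change of -0.26 (adjusted p = 0.446, edgeR).

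SCAMP1-AS1 had 16.4, 20.6 and 19.8 CPM in the controls and 12.05, 9.49 and 7.66 CPM in the libraries labelled TFAM-OE. The groups were apart and the log2 fold change was -0.96 ± 0.18 (SE, adjusted p = 0.0118, edgeR). Its start lies 103 bases from that of SCAMP1, a carrier protein of secretory membranes, which had a log2 fold change of -0.25 (adjusted p = 0.163, edgeR). RP5-884M6.1 (LINC02577) had 11.0, 9.64 and 10.6 CPM against 7.40, 5.09 and 4.599 CPM, and fell by 0.87 ± 0.19 (SE, adjusted p = 0.0218, edgeR) on the log2 scale.

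The increases were CTD-2600O9.1 and BCYRN1. CTD-2600O9.1, which overlaps KIFC3 on the other strand in 4.59% of its exonic bases, had 17.4, 18.2 and 19.3 CPM in the controls and 30.8, 26.4 and 23.9 CPM in the libraries labelled TFAM-OE. The groups were apart, with a log2 fold change of 0.56 ± 0.12 (SE, adjusted p = 0.0250, edgeR), beside -0.04 for KIFC3. BCYRN1, the Alu-derived BC200 RNA of neurons and tumours, had 6.67, 9.04 and 10.2 CPM against 17.7, 17.6 and 15.2 CPM. It rose by 0.96 ± 0.17 (SE, adjusted p = 0.00930, edgeR) on the log2 scale. The BCYRN1 row is not a clean measure of that RNA. The ratio of its CPM to its deposited FPKM corresponds to roughly 15968 bases, whereas GENCODE 44 gives the gene 200. The ratio is not an exact length, as it came to 1.18 times the exonic length for RP11-54O7.17 and for LINC00973. For 100 of 144 lincRNAs with coordinates this ratio was between 0.5 and 2 times the GENCODE 44 exonic length, for 39 it was below and for 5 above, of which BCYRN1 was the most extreme. Which part of its reads fell on the 200 bases was not analysed here.

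**Figure D3:**
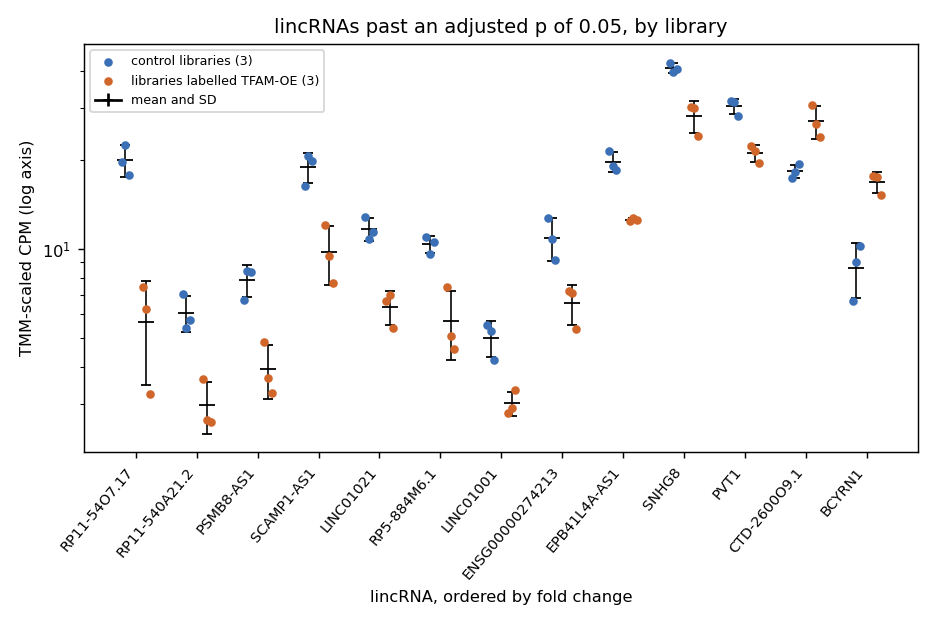
The 13 lincRNAs past an adjusted p of 0.05 are ordered by fold change, with CPM on a log axis. Points are libraries and bars the mean and SD of 3, and the groups do not overlap in any of the 13, with library 3 labelled TFAM-OE the lowest point in 9 of the 11 decreases.

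The number of calls changed when single libraries were left out, while the 13 lincRNAs that passed kept their direction. Library 3 labelled TFAM-OE was the lowest of the 6 for 59 of the 153 lincRNAs, more than any other library, and for 9 of the 11 that fell. Its part in the decreases was not tested beyond leaving it out, which gave 16 decreases. Without control library 1 or control library 2 there were 3, without library 2 labelled TFAM-OE there were 2, and without library 1 labelled TFAM-OE there were 18. RP11-54O7.17 passed in each of these fits. LINC01021 did not pass without control library 1, with log2 fold changes from -0.95 to -0.67 over all settings, and RP11-540A21.2 did not pass without that library or library 2 labelled TFAM-OE (-1.21 to -0.65). PSMB8-AS1 (-1.17 to -0.80) and SCAMP1-AS1 (-1.14 to -0.81) lost their calls without control library 2 or library 2 labelled TFAM-OE. EPB41L4A-AS1, PVT1, LINC01001, ENSG00000274213, RP5-884M6.1 and SNHG8 lost theirs without control library 1, control library 2 or library 2 labelled TFAM-OE, and SNHG8 also without control library 3. Over all settings their log2 fold changes stayed negative, from -0.69 to -0.55 for EPB41L4A-AS1, from -0.57 to -0.46 for PVT1, from -0.60 to -0.44 for SNHG8 and from -0.84 to -0.60 for ENSG00000274213. RP5-884M6.1 ranged from -1.10 to -0.59 and LINC01001 from -0.85 to -0.35. The increases ranged from 0 to 10, and BCYRN1 and CTD-2600O9.1 were both lost without control library 2 or library 2 labelled TFAM-OE, the latter also without control library 1. On log2(FPKM + 0.1) without a filter on low values, BCYRN1, ENSG00000274213 and RP5-884M6.1 did not pass either, nor did LINC01001.

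The lincRNAs were also set beside their nearest protein-coding genes. Of 153, 45 overlapped that gene, 38 lay head to head with it, 50 ran in the same direction, 11 lay tail to tail and 9 had no coordinates in GENCODE 44. In 114 the neighbour was tested as well, and 69 of these pairs had the same sign. Across them Spearman's rho of the log2 fold changes was 0.251, a description over pairs that share the same 6 libraries. It was 0.418 for 41 pairs with a gap under 10 kb, 0.249 for 39 overlapping pairs and -0.010 for 34 pairs 10 kb or more apart. Without the ISG neighbours it was 0.211 over 109 pairs.

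A closer set were the 20 lincRNAs that started within 1 kb of a coding gene on the other strand, with gaps of 42 to 438 bases. In 15 of these the pair had the same sign, and only ENSG00000274213 and TRIM25 both passed. SCAMP1-AS1 passed without SCAMP1. SNHG19 is 292 bases from TRAF7, which rose by 0.61 on the log2 scale (adjusted p = 0.0220, edgeR) while SNHG19 did not pass. MNX1-AS1 and BAIAP2-AS1 were higher in every library labelled TFAM-OE, with log2 fold changes of 0.58 and 0.52, and neither passed.

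**Figure D4:**
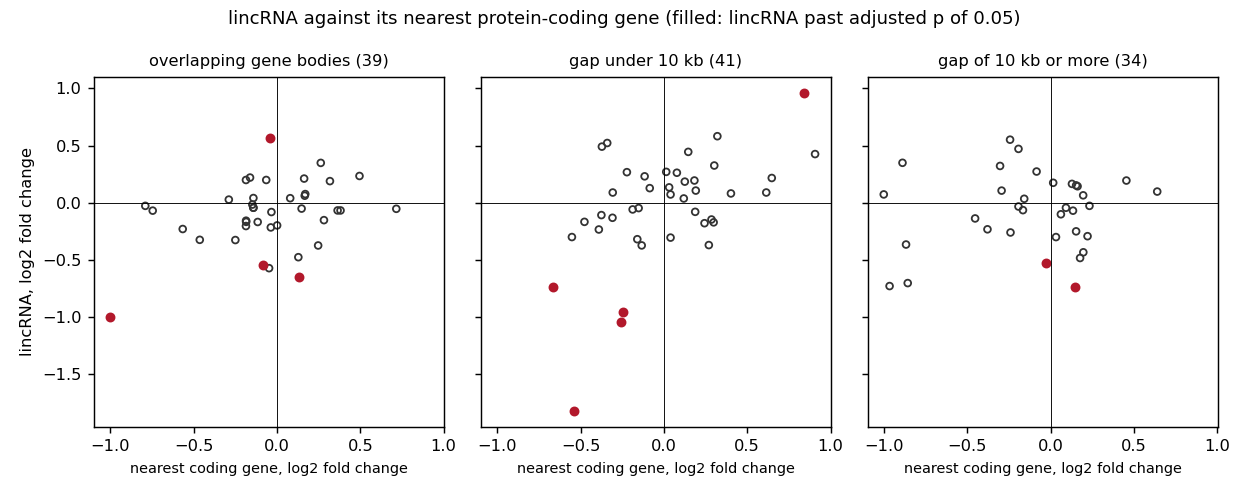
Each point is a lincRNA and its nearest protein-coding gene, with the log2 fold change of the gene on the horizontal and of the lincRNA on the vertical axis, in panels by distance (39, 41 and 34 pairs). Filled points are lincRNAs that passed, and Spearman's rho was 0.249, 0.418 and -0.010 in the panels from left to right.

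RNAs listed here as lacking a poly(A) tail were also among the 153 although poly(A) RNA had been selected. Whether the transcripts of the chromosome 21 rows on this list carry a tail was not examined. CH507-513H4.3, CH507-513H4.4 and CH507-513H4.6 lie in the ribosomal DNA repeats of chromosome 21, have 923 bases each and are 100% identical in GRCh38. CH507-513H4.6 had 414, 11 and 41 reads in control libraries 1 to 3 and 5, 53 and 1435 in those labelled TFAM-OE. CH507-513H4.4 had 74, 3 and 65 reads against 162, 471 and 5. CH507-513H4.3 had 58, 0 and 51 reads against 161, 357 and 0. The reads of a library thus went either mainly to CH507-513H4.6, as in control library 1 and library 3 labelled TFAM-OE, or mainly to the other copies, as in libraries 1 and 2 labelled TFAM-OE. Their log2 fold changes of 1.81, 2.12 and 2.21 were the highest of all 153 and none passed. These values rested on single libraries: without library 3 labelled TFAM-OE, CH507-513H4.6 turned to -2.48 (adjusted p = 0.112, edgeR), and without control library 1 it was 4.36. CH507-513H4.3 and CH507-513H4.4 ranged from 1.05 to 2.78 and from 0.92 to 2.68 over the settings tried, and passed without library 3 labelled TFAM-OE (adjusted p = 0.00472 and 0.00449, edgeR). All 3 passed without the filter on low counts. Summed over the 3 rows the level was 16.3, 0.523 and 4.28 CPM in the controls and 10.3, 24.2 and 47.99 CPM in those labelled TFAM-OE, with overlap. A further copy, CH507-513H4.5, also has 923 bases and is 99.67% identical to them. It held 337 reads in all, is not among the 153 and is not in this sum. The study's methods state that only uniquely mapped reads entered the counts. How such reads were told apart between identical copies was not stated in those sources, and the split between the rows is uncertain.

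RMRP, the RNA of the RNase MRP enzyme, likewise had 7.53, 5.08 and 7.64 CPM in the controls and 14.5, 9.602 and 3.97 CPM in the libraries labelled TFAM-OE. The second group held both the highest and the lowest library, with a coefficient of variation of 56.3%. The median coefficient of variation over the 153 was 10.5% in the controls and 13.4% in the other group, and 6 lincRNAs exceeded 50% in either. The list of RNAs taken to lack a poly(A) tail had 13 in the table. Their summed level ran from 181 to 259 CPM in the controls and from 173 to 291 CPM in the libraries labelled TFAM-OE. Of the 11 tested, 0 passed. The part of poly(A) selection in these values was not tested.

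**Figure D5:**
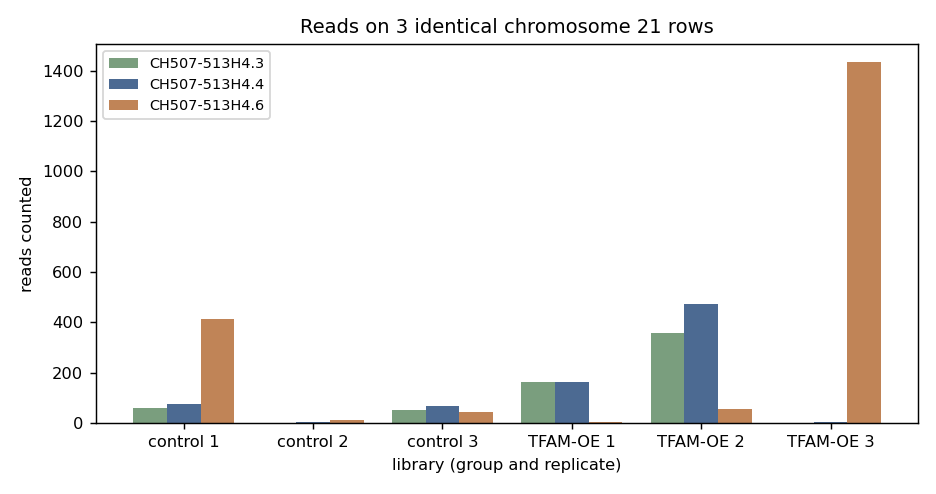
Bars give the reads counted on the 3 identical chromosome 21 rows in each of the 6 libraries. CH507-513H4.6 takes most reads in control library 1 and in library 3 labelled TFAM-OE (1435), whereas CH507-513H4.3 and CH507-513H4.4 take most in libraries 1 and 2 labelled TFAM-OE.

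Per length, the 153 lincRNAs ranged from 0.268 to 57.1 FPKM in mean, with a median of 3.02. After SNHG19 came SNHG8 at 43.5, RMRP at 25.1, LINC00657 at 24.4 and ENSG00000274213 at 21.3 mean FPKM. LINC00973 followed at 18.3, with 24.7, 19.1 and 20.6 FPKM in the controls and 16.3, 14.8 and 14.1 FPKM in the libraries labelled TFAM-OE. Its groups did not overlap, and its log2 fold change of -0.48 had an adjusted p of 0.0570 (edgeR). LINC00152, RP11-620J15.3, RP11-554I8.2 and RP11-14N7.2 completed the 10 highest, between 13.57 and 16.8 mean FPKM, and none passed. Of the 10 highest, SNHG8 and ENSG00000274213 passed, both lower.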

How the data were processed

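For each library the authors deposited whole-number read counts and FPKM values per gene, without pooling replicates. Per the study's methods, adaptors and low-quality bases were removed with the FASTX-Toolkit, reads under 16 nt were dropped, and the rest was aligned to GRCh38 by TopHat2 with at most 4 mismatches. Counts and FPKM were taken from uniquely mapped reads. Neither the counting program nor the annotation or strand setting is given in the sources used here. Unused value columns numbered 0.

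Counts of all genes kept by filterByExpr (16555) were scaled by TMM and compared, unpaired and two-sided, by quasi-likelihood in edgeR (4.0.16, under R 4.3.3) with Benjamini-Hochberg adjustment. With the filter, edgeR's prior degrees of freedom for the spread had a median of 5.98. Without it their estimate was infinite, so that a gene's own spread had no weight, and the filtered fit was preferred. SEs were taken from the fit, and the SE of a log2 fold change is its size over the root of F. CPM are TMM-scaled. An interval from reads alone, without molecular identifiers, would cover counting error only, and none is given here. The SDs and SEs given include the spread between libraries. FPKM were used as deposited. Coordinates and neighbours came from GENCODE 44 (94.1% of the lincRNAs matched by ID) and promoters from RefSeq, read in Python (3.11.15). The test was also run on simulated data, and its outcome is not given here. The simulated spread followed a gene's abundance alone, without outlying single libraries, so that run cannot show how the test behaves on these libraries.

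The lincRNAs, lists and tests were chosen with earlier results of these data known. Named lincRNAs are those within 100 kb of an ISG, those called with a 2-fold change, the 10 highest in FPKM and the role lists. SCAMP1-AS1, RP5-884M6.1, LINC01001, CTD-2600O9.1, BCYRN1, MNX1-AS1 and BAIAP2-AS1 were named after their values were seen. Alternatives were DESeq2 (1.42.0), limma-voom and limma-trend (3.58.1) on log2(FPKM + 0.1) or log2(FPKM + 1), other scalings and filters, a replicate block, each library left out, other read limits and other windows.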

Additional observations from a re-analysis of the deposited data

How the results depend on the processing

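Counts of lincRNAs past the adjusted p moved by over 1.5 times with the tool, the filter, the replicate block and single libraries. Decreases numbered 17 with DESeq2 and 19 without a filter on low counts, against 11, and increases 4 and 10, against 2, with 1 increase on unfiltered log2(FPKM + 0.1). Leaving out 1 library gave 2 to 18 decreases and 0 to 10 increases. Past the fold limit there were 1 to 6 decreases and 0 to 3 increases when 1 library was left out, and 3 increases without the filter. There was 1 such decrease on log2(FPKM + 1), with a limit of 1200 reads and, an alternative added after the data were seen, with 300 reads in each group, both of which keep fewer lincRNAs. The window gave 3 lincRNAs at 50 kb and 13 at 500 kb, against 5. Other scalings moved the median of all genes by under 0.1 on the log2 scale. With the replicate number as a block, 3 lincRNAs fell and 0 rose. The same-numbered libraries did not deviate together (correlations -0.22, 0.01 and -0.27), so the numbers were not taken as pairs. Between unlike numbers the correlations ran from -0.04 to 0.25, the highest for control library 3 with library 1 labelled TFAM-OE. No named lincRNA that passed changed sign, and CH507-513H4.6, which did not pass, turned to -2.48 without library 3 labelled TFAM-OE. The cause of these shifts was not tested. With 3 libraries per group, changes under about 1.5-fold at this depth often did not pass, and a lincRNA that did not pass is not shown to be unchanged.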
